A study of Mus musculus with 9 samples.

Results

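The genes described here encode the colony-stimulating factors and the chains of their receptors. They are the 3 ligands Csf1, Csf2 and Csf3 and the 5 receptor chains Csf1r, Csf2ra, Csf2rb, Csf2rb2 and Csf3r, taken by gene name from a deposited table of 26146 genes, in which all 8 were found. Poly(A) RNA was sequenced in 9 libraries of RAW264.7, an established mouse macrophage line. The study asked how an extract of Traditional Chinese Medicine altered the transcriptome after exposure to lipopolysaccharide (LPS), an outer-membrane molecule of bacteria that activates macrophages through Toll-like receptor 4. There were 3 M libraries, 3 ET libraries and 3 Normal libraries. The Normal libraries came from untreated cells. Cells of both other groups had received LPS, and those of 1 of them the extract as well. The labels disagree on which. By the sample titles and the table columns they point to, M is LPS with extract and ET is LPS alone, and by the library names in the same labels the assignment is the other way round. The groups are therefore called M and ET. Differences between M and ET hold under either reading, but the sign of the extract effect they would stand for turns round. The labels name no plant, dose or exposure time, and they do not say that the libraries of a group came from separate cultures, so p-values measure only the spread between these libraries, which may be technical.

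Colony-stimulating factors are secreted proteins that govern the survival, growth and activation of myeloid cells. M-CSF, the product of Csf1, binds the receptor tyrosine kinase CSF1R, on which macrophages depend for survival. GM-CSF, the product of Csf2, binds a ligand-specific alpha chain (Csf2ra) paired with a beta chain shared with the receptors for interleukin 3 and interleukin 5 (Csf2rb), and G-CSF, the product of Csf3, binds a homodimer of CSF3R and drives neutrophil production. The beta-chain receptors and CSF3R carry no kinase of their own and signal through Janus kinases and STAT proteins. Mice have a second beta chain, encoded by Csf2rb2, which serves the interleukin 3 receptor.

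The ligand transcripts Csf2 and Csf3 carry AU-rich elements, repeats of the pentamer ATTTA in the 3′ untranslated region that are known to mark cytokine mRNAs for rapid decay. Csf2 had 9 ATTTA pentamers in 317 bases (28.4 per kilobase) and 4 copies of the nonamer TTATTTATT, overlapping copies counted on the sense strand in GENCODE M21. Csf3 had 6 pentamers in 669 bases (8.97 per kilobase) and no nonamer. Csf1 had 4 in 2111 bases and Csf1r 3 in 1669 bases. Csf2ra, Csf2rb, Csf2rb2 and Csf3r had none in the transcripts used. Over 20659 mouse genes with a 3′ untranslated region of at least 50 bases, the median was 1.28 pentamers per kilobase, 22% of genes had 5 or more pentamers and 7.79% had the nonamer. The densest 30 bases of each ligand are shown because these 2 transcripts were at 0 counts in Normal cells, with the pentamers in capitals, for Csf2 at chr11:54247329-54247358 (minus strand) and for Csf3 at chr11:98702984-98703013 (plus strand), both GRCm38.
Csf2: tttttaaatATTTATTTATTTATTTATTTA
Csf3: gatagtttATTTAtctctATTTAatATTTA
Within these 30 bases the pentamers of Csf2 overlap in an unbroken run, and those of Csf3 stand apart. The windows hold only part of the pentamers of each transcript.

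Total counts per library lay between 57796361 and 60881764 in M, 55039858 and 62962615 in ET, and 56921531 and 76242718 in Normal. ET replicate 3 stood apart from the other ET libraries, with a chi-square per gene of 21.2 and 17.7 against them where they gave 12.4 between themselves. Macrophage markers were present throughout, summing to 2178 to 2236 FPKM (fragments scaled by transcript length and library total) in M, 2244 to 2412 in ET and 1625 to 1722 in Normal. Cd68, a lysosomal glycoprotein of macrophages, averaged 447 FPKM in M, 492 in ET and 363 in Normal, and Cd14, the LPS co-receptor, averaged 1009 in M, 959 in ET and 201 in Normal. Adgre1 averaged 59.0 FPKM in M, 55.2 in ET and 15.4 in Normal, and Itgam 88.5, 86.2 and 27.7. Cd200r1 was also higher in M and ET, while Ptprc averaged 12.7 in M, 10.4 in ET and 12.0 in Normal. Lyz2 and Fcgr1 had lower means in M and ET than in Normal. Lyz2, lysozyme, averaged 550.4 FPKM in M, 669 in ET and 995 in Normal, and Fcgr1, an Fc receptor, 44.7, 48.9 and 51.3. Mertk, Mrc1 and Aif1 stayed under 1 FPKM in every group. Of 8 granulocyte markers in the table, 1, S100a8, a calcium-binding alarmin that activated macrophages also make, accounted for most of a sum of 45.0 to 51.9 FPKM in M and 41.7 to 51.4 in ET, against 1.87 to 2.66 in Normal. S100a8 itself averaged 44.5 FPKM in M, 42.3 in ET and 0.0223 in Normal, while the neutrophil granule genes Mpo and Elane were at or below 0.0328 FPKM in every group. Fibroblast markers summed to 4.18 to 6.16 FPKM in M, 3.13 to 3.6 in ET and 0.0941 to 0.243 in Normal, of which Lum gave 4.85, 3.04 and 0, with Col1a1 at or below 0.0196 in every group. Endothelial markers summed to 3.23 to 3.58 FPKM in M, 2.85 to 3.26 in ET and 0.780 to 0.953 in Normal. Pecam1 gave 3.11, 2.69 and 0.811 of these, with Cdh5, Kdr and Tek at or below 0.349 in every group. Dendritic cell markers summed to 0.261 to 0.497 FPKM in M, 0.265 to 0.479 in ET and 3.03 to 3.49 in Normal, where Siglech alone gave 3.18 and Flt3 was at 0. Lymphocyte markers summed to at most 1.93 FPKM and epithelial and mast cell markers to at most 0.227 in any library. The part of these markers in the results was not tested. In a bulk library, fewer cells of a type and less RNA per cell cannot be told apart.

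Treated and untreated cells differed in every one of the 8 genes. Csf1, Csf2 and Csf3 were higher in M and in ET than in Normal, as were the GM-CSF receptor chains Csf2ra and Csf2rb and the second beta chain Csf2rb2, whereas Csf1r and Csf3r were lower. Genes were tested where FPKM reached 1 in at least 3 libraries (11536 genes), and all 8 passed. Of these, Csf1, Csf2 and Csf3 passed only through the treated libraries and Csf3r only through the Normal libraries, so these 4 had to differ. Csf2rb2 reached 1 FPKM in 2 Normal libraries and also needed the treated ones, so the filter favoured its rise. The remaining 3 genes would have passed through either. At an adjusted p under 0.05, 6 of 8 were higher and 2 of 8 lower in M than in Normal, and 6 were higher and 2 lower in ET than in Normal. Of all genes tested, 70.0% were called in M against Normal, 35.5% higher and 34.5% lower, and 70.2% in ET against Normal, 35.0% higher and 35.2% lower. The even split rests on the scaling: total counts without TMM factors called 3460 genes higher and 4757 lower in M than in Normal, where TMM called 4101 and 3978, and 3473 and 4770 in ET against Normal, where TMM called 4037 and 4066. The FPKM of M and Normal did not overlap for any of the 8, against 75.8% of all tested genes without overlap, nor did those of ET and Normal, against 74.1%. The median log2 change over the 8 was 1.35 in M and 1.40 in ET, both relative to Normal, where the medians over all tested genes were -0.01 and -0.02; the medians over the 8 are the same with Csf2 and Csf3 at their lower bounds. Both comparisons use the same Normal libraries.

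**Figure D1:**
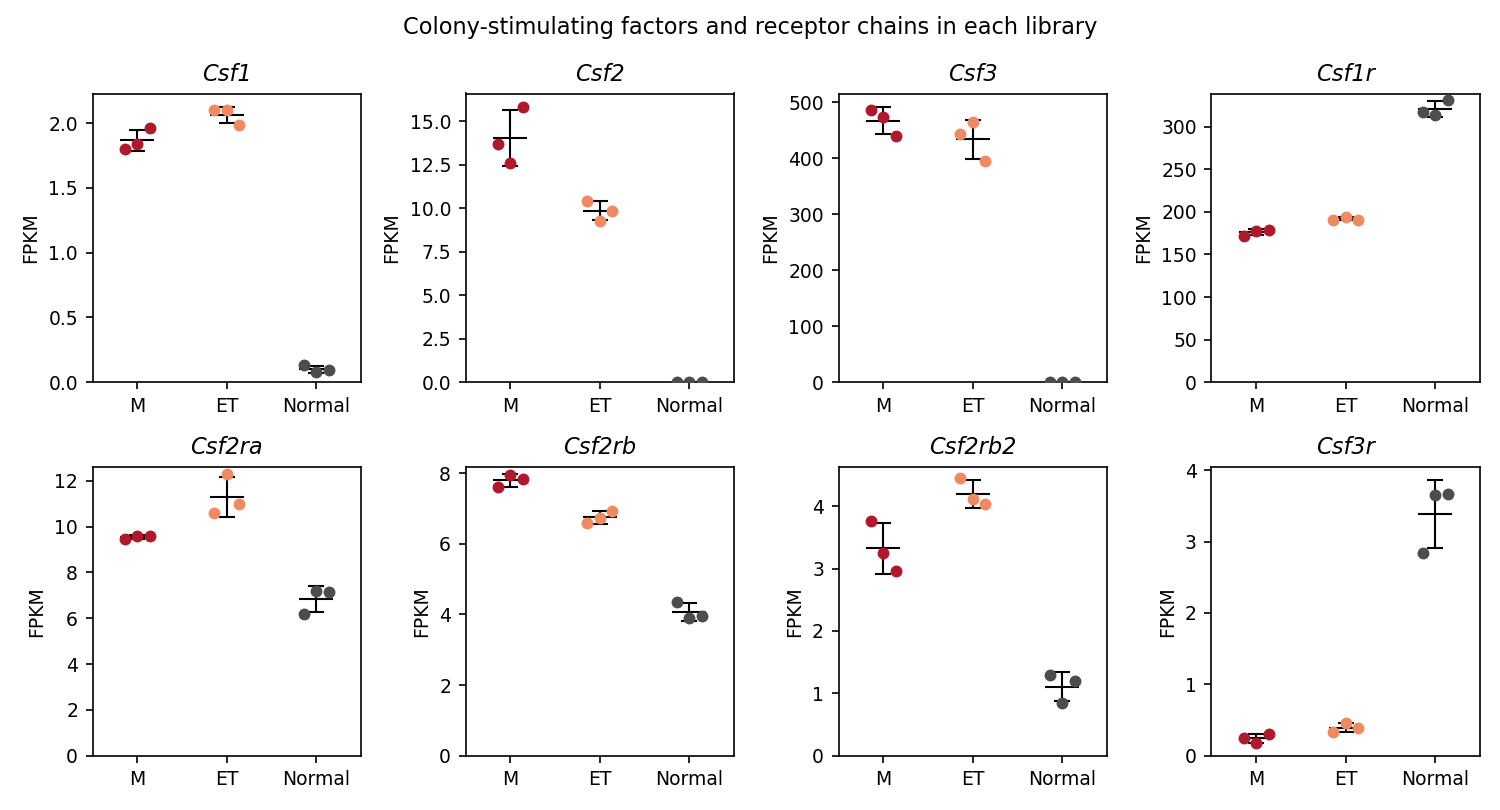
FPKM of each of the 8 genes in the M, ET and Normal libraries, 1 panel per gene on a linear axis from 0; points are libraries, and bars are the mean and SD of 3. Csf1, Csf2, Csf3, Csf2ra, Csf2rb and Csf2rb2 are higher in the M and ET libraries than in every Normal library, and Csf1r and Csf3r are lower.

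Ranked by deposited FPKM, the 8 transcripts stood in a different order in treated and untreated cells. FPKM divides by a length for each gene, and the order depends on it. For Csf2rb, counts and FPKM implied a length of 7.77 to 7.83 kilobases, where the Csf2rb transcript compared with Csf2rb2 below has 4764 bases. A shorter length would raise Csf2rb, so its place next to Csf2ra is uncertain. In M the order was Csf3, Csf1r, Csf2, Csf2ra, Csf2rb, Csf2rb2, Csf1 and Csf3r, and in ET it differed only in that Csf2ra stood above Csf2. In Normal it was Csf1r, Csf2ra, Csf2rb, Csf3r, Csf2rb2 and Csf1, with Csf2 and Csf3 tied at 0. Neighbours in each order had library values that did not overlap, apart from that tie. The 3 ligands together summed to 483 ± 23.0 FPKM in M, 446 ± 34.7 in ET and 0.101 ± 0.0264 in Normal (SD, n = 3 each). The 5 receptor chains summed to 197 ± 3.28 FPKM in M, 214 ± 2.63 in ET and 336 ± 9.26 in Normal. Csf3 made up 96.7% of the ligand sum in M and 97.3% in ET. Csf1r made up 89.4% of the receptor sum in M, 89.4% in ET and 95.4% in Normal.

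Csf3 was the most abundant of the 8 transcripts in treated cells. The gene (ENSMUSG00000038067, chr11:98701263-98703629, plus strand) had 487, 474 and 440.1 FPKM in the M libraries, 443, 464 and 396 in the ET libraries, and 0 in all 3 Normal libraries. The M and ET values overlapped, and no count fell on the gene in any Normal library. CPM here are counts scaled by library total and TMM factor. A floor of 3 counts per library allowed up to 0.0509 CPM in Normal. Against it Csf3 was at least 14263-fold higher in M, at 726 ± 40.4 CPM, and at least 13161-fold higher in ET, at 669.9 ± 51.6 CPM (SD, n = 3). The adjusted p was 4.07e-14 for M and 4.63e-14 for ET against Normal (edgeR quasi-likelihood test, Benjamini-Hochberg). The difference between M and ET did not pass (log2 difference 0.12 ± 0.06 SE, 1.08-fold, 95% interval 0.99 to 1.19, adjusted p = 0.250 by the edgeR quasi-likelihood test).

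Csf2, which encodes GM-CSF, followed the same on-off pattern at a lower level. The gene (ENSMUSG00000018916, chr11:54247271-54249667, minus strand) had 13.7, 12.6 and 15.8 FPKM in M, 10.4, 9.29 and 9.86 in ET, and 0 in each Normal library. Every M library lay above every ET library. Against the same floor Csf2 was at least 243-fold higher in M, at 12.4 ± 1.39 CPM, and at least 169-fold higher in ET, at 8.60 ± 0.498 CPM (SD, n = 3), with adjusted p of 9.91e-11 and 1.78e-10 in edgeR's quasi-likelihood test. Csf2 was 1.44-fold higher in M than in ET (95% interval 1.17 to 1.76, log2 difference 0.52 ± 0.13 SE, adjusted p = 0.0358, edgeR quasi-likelihood test). An antisense gene, Gm12223, overlaps Csf2. It had at most 3 counts in any M or ET library and 0 in Normal, where Csf2 had 437 to 799 counts in the treated libraries, but the strand setting used for counting is not stated by the sources.

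Csf1, which encodes M-CSF, was detected in untreated cells and rose in both treated groups. The gene (ENSMUSG00000014599, chr3:107741048-107760469, minus strand) had 1.80, 1.84 and 1.96 FPKM in M, 2.1, 2.1 and 1.99 in ET, and 0.129, 0.0767 and 0.0960 in Normal. The treated libraries held 603 to 749 counts and the Normal libraries 31 to 45. Csf1 was 19.7-fold higher in M than in Normal (log2 change 4.30 ± 0.17 SE, adjusted p = 1.41e-10) and 21.6-fold higher in ET than in Normal (4.43 ± 0.17 SE, adjusted p = 1.13e-10, both by the edgeR quasi-likelihood test). All 3 M values lay below all 3 ET values, by a margin that did not pass the test (0.914-fold, 95% interval 0.747 to 1.12, adjusted p = 0.593, edgeR quasi-likelihood test). On log2 of FPKM plus 1 (limma), which understates changes of low genes, the change of Csf1 was 1.38 in M and 1.48 in ET relative to Normal. Relative to the other ligands, Csf1 stayed low in the treated groups, at 1.87 ± 0.0816 FPKM in M and 2.06 ± 0.0608 in ET, where Csf2 reached 14 ± 1.61 and 9.84 ± 0.530 (SD, n = 3).

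RefSeq promoters (GRCm38.p6) were matched for 5 of the 8 genes, Csf1, Csf2, Csf2ra, Csf2rb2 and Csf3r, and not for Csf3, Csf1r and Csf2rb. The 250 bases before the start were searched on both strands for the NF-kB decamer, by its name alone, the STAT site TTCNNNGAA, the AP-1 site TGANTCA and the ETS core GAGGAA. Of 32851 mouse promoters of that length, 7.25% held the NF-kB decamer, 7.02% the STAT site, 6.75% the AP-1 site and 23.3% the ETS core. The STAT and AP-1 sites are their own reverse complements, and no motif match shown overlaps another. The windows of Csf1 and Csf2rb2, whose RefSeq starts equal those of the table, are printed because both genes rose in treated cells. In the window of Csf1, at chr3:107760470-107760719 on the minus strand, capitals mark an NF-kB decamer match on the opposite strand, 154 to 145 bases before the start.
Csf1 promoter: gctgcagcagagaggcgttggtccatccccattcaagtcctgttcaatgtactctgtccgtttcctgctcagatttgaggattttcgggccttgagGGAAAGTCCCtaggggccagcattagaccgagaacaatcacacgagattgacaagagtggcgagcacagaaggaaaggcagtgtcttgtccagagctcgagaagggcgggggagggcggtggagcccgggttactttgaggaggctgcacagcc
In the window of Csf2rb2, at chr15:78305722-78305971 on the minus strand, capitals mark a STAT site match 15 to 7 bases before the start.
Csf2rb2 promoter: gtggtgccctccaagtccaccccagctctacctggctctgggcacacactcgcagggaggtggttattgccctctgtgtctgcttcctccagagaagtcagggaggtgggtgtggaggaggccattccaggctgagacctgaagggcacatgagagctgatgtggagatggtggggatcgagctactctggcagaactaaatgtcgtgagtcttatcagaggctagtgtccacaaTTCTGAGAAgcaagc
The Csf2rb2 window also held an ETS core on the opposite strand, 167 to 162 bases before the start. The Csf3r window held an NF-kB decamer match 129 to 120 bases and an ETS core 86 to 81 bases before its RefSeq start, the Csf2ra window held ETS cores 14 to 9 and 8 to 3 bases before its own, and the Csf2 window held none of the 4 motifs. The RefSeq start of Csf2 lay 232 bases upstream of its start in the deposited table. Its window therefore left out the 232 bases just before the table start, and the lack of a match says nothing of them. The RefSeq starts of Csf3r and Csf2ra lay 109 and 11 bases downstream of theirs. None of these windows is printed. A match describes letters in a window and was not tested as a binding site.

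Csf1r, the M-CSF receptor and the most abundant receptor of the family, fell in both treated groups. The gene (ENSMUSG00000024621, chr18:61100598-61131134, plus strand) had 172, 178 and 179 FPKM in M, 190.5, 194 and 191 in ET, and 317, 314 and 331 in Normal. The 3 groups were fully separate, with M lowest and Normal highest. Csf1r was 1.71-fold lower in M than in Normal (log2 change -0.77 ± 0.03 SE, adjusted p = 7.9e-11) and 1.58-fold lower in ET than in Normal (-0.66 ± 0.03 SE, adjusted p = 3.54e-10, both by the edgeR quasi-likelihood test). It was 1.08-fold lower in M than in ET (0.926-fold, 95% interval 0.888 to 0.967, adjusted p = 0.0304, edgeR quasi-likelihood test). Even so it kept 176 ± 3.44 FPKM in M and 192 ± 1.77 FPKM in ET, against 320.4 ± 8.85 FPKM in Normal (SD, n = 3 each).

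Csf3r, the G-CSF receptor, moved opposite to its ligand. The gene (ENSMUSG00000028859, chr4:126024550-126044440, plus strand) had 0.248, 0.178 and 0.304 FPKM in M, 0.334, 0.455 and 0.390 in ET, and 2.84, 3.65 and 3.67 in Normal. The treated libraries held 40 to 97 counts of it, where the Normal libraries held 676 to 1082. Csf3r was 12.9-fold lower in M than in Normal (log2 change -3.69 ± 0.21 SE, adjusted p = 5.67e-09) and 8.13-fold lower in ET than in Normal (-3.02 ± 0.20 SE, adjusted p = 2.58e-08, edgeR quasi-likelihood test). Of the receptor chains it differed most between M and ET in fold, every M library lying below every ET library, but the difference did not pass (0.629-fold, 95% interval 0.457 to 0.866, adjusted p = 0.0705, edgeR quasi-likelihood test). Of the granulocyte markers, Cebpe, which encodes a transcription factor of granulocyte maturation, averaged 3.35 FPKM in M, 4.01 in ET and 2.01 in Normal, near the level of Csf3r in Normal, while Mpo and Elane were near 0 in all groups as given above. Their part in the result was not tested. On log2 of FPKM plus 1 (limma), a scale that understates changes of low genes, the change of Csf3r was -1.81 in M and -1.65 in ET relative to Normal.

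Both chains of the GM-CSF receptor rose. The alpha chain gene Csf2ra (ENSMUSG00000059326, chr19:61223957-61228429, minus strand) had 9.44, 9.58 and 9.61 FPKM in M, 10.6, 12.3 and 11 in ET, and 6.19, 7.18 and 7.13 in Normal. The groups did not overlap, and ET stood highest. Csf2ra was 1.48-fold higher in M than in Normal (log2 change 0.57 ± 0.08 SE, adjusted p = 2.18e-05) and 1.74-fold higher in ET than in Normal (0.80 ± 0.08 SE, adjusted p = 8.82e-07, edgeR quasi-likelihood test). Between M and ET the ratio was 0.851 (95% interval 0.761 to 0.953, adjusted p = 0.0739, edgeR quasi-likelihood test), which did not pass.

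The shared beta chain gene Csf2rb (ENSMUSG00000071713, chr15:78325752-78351001, plus strand) had 7.60, 7.94 and 7.84 FPKM in M, 6.59, 6.72 and 6.94 in ET, and 4.36, 3.91 and 3.95 in Normal. Here M stood highest, again without overlap between any of the groups. Csf2rb was 2.03-fold higher in M than in Normal (log2 change 1.02 ± 0.06 SE, adjusted p = 5.67e-09), 1.75-fold higher in ET than in Normal (0.80 ± 0.06 SE, adjusted p = 5.92e-08) and 1.16-fold higher in M than in ET (95% interval 1.07 to 1.27, adjusted p = 0.0333, all by the edgeR quasi-likelihood test). The ratio of Csf2ra to Csf2rb FPKM was 1.23 ± 0.0182 in M, 1.68 ± 0.140 in ET and 1.69 ± 0.233 in Normal (SD, n = 3), with every M value below every ET and Normal value. Its level rests on the length behind the Csf2rb FPKM, so a ratio above 1 does not show more alpha than beta chain transcript.

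Csf2rb2, the second beta chain, lies next to Csf2rb on the opposite strand (ENSMUSG00000071714, chr15:78282507-78305721, minus strand). It had 3.77, 3.25 and 2.96 FPKM in M, 4.45, 4.11 and 4.03 in ET, and 1.29, 0.842 and 1.19 in Normal. Csf2rb2 was 3.20-fold higher in M than in Normal (log2 change 1.68 ± 0.15 SE, adjusted p = 4.7e-07) and 4.01-fold higher in ET than in Normal (2.00 ± 0.15 SE, adjusted p = 8.77e-08, edgeR quasi-likelihood test). On log2 of FPKM plus 1 (limma) these changes were 1.04 and 1.31. The groups did not overlap, with ET highest, and the ratio of M to ET was 0.799 (95% interval 0.646 to 0.989, adjusted p = 0.176, edgeR quasi-likelihood test).

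The beta chain genes are near-identical, so reads could be split between them. Their coding sequences in GENCODE M21, 2688 bases for Csf2rb and 2634 for Csf2rb2, were identical at 92.9% of 2694 aligned positions, with 125 mismatches, 66 gapped positions and a longest identical run of 242 bases. Of all 150-base windows, the read length, 3.58% of the Csf2rb transcript and 3.59% of the Csf2rb2 transcript occurred exactly in the other. The ungapped stretch of 120 coding bases with the most mismatches, 22, is shown. Stretches with gaps were left out of this choice, and the last 94 aligned positions, gaps counted, differed at 56. The stretch shown spans coding bases 309 to 428 of Csf2rb and 312 to 431 of Csf2rb2, and capitals mark the bases that differ.
Csf2rb: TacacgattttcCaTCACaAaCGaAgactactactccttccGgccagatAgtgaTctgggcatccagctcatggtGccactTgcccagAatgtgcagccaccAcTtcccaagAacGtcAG
Csf2rb2: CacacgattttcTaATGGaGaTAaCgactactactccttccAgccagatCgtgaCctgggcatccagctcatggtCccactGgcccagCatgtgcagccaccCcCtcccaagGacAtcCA
The share of Csf2rb2 in the summed counts of both genes was 24.4, 21 and 19.8% in M, 30.6, 28.5 and 27.4% in ET, and 16.1, 12.3 and 16.4% in Normal. The 3 groups did not overlap, and this share does not depend on how libraries were scaled to each other. The difference was -7.08 percentage points for M against ET, 6.80 for M against Normal and 13.9 for ET against Normal, each with p = 0.1 in a two-sided exact permutation test of 3 against 3 libraries, the smallest p that design allows. From FPKM in place of counts, the ET share exceeded the Normal share by 17.1 points. How the authors' counting assigned reads that match both genes is not stated by the sources, and the levels of both are uncertain to that extent.

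**Figure D2:**
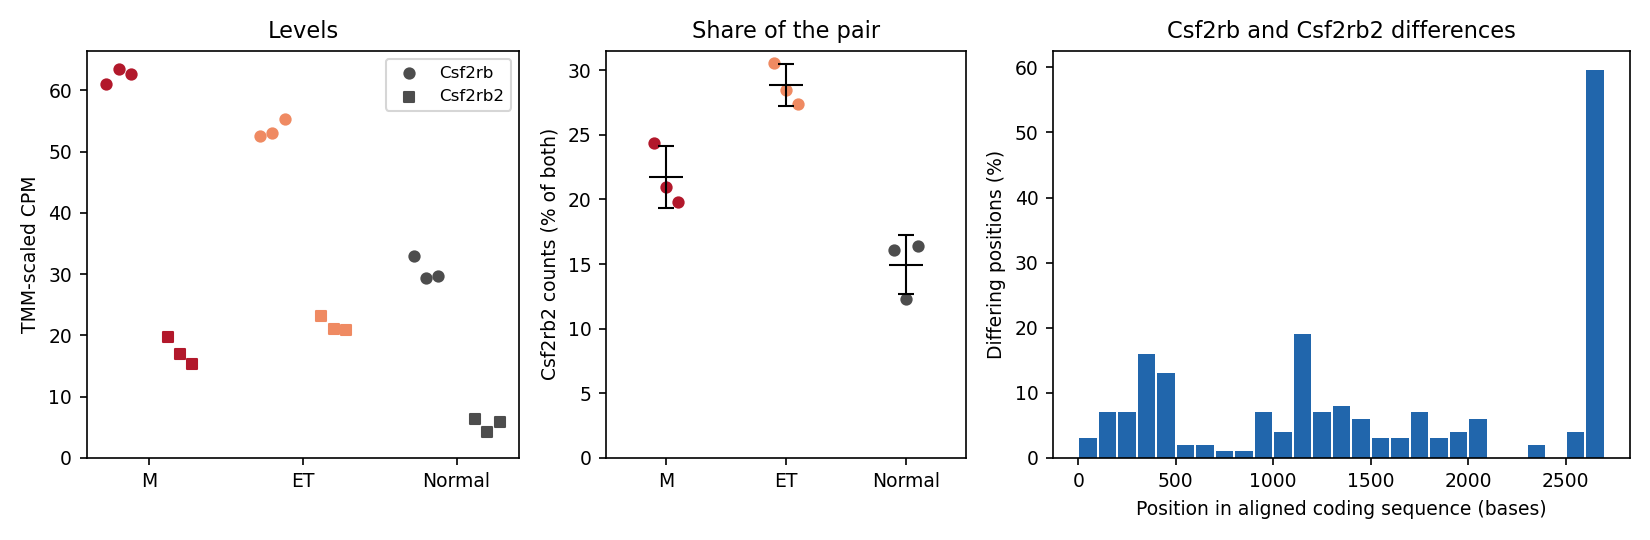
TMM-scaled CPM of Csf2rb (circles) and Csf2rb2 (squares) per library, Csf2rb2 as a percentage of the counts of both genes with the mean and SD of 3 libraries, and the percentage of aligned coding positions that differ, in bins of 100 positions. The ET shares lie between 27.4 and 30.6%, above the M shares (19.8 to 24.4%) and the Normal shares (12.3 to 16.4%), and the last bin differs most.

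Between M and ET, the differences in these genes were small next to those from Normal. Csf2 and Csf2rb were higher in M, Csf1r was lower, and Csf1, Csf3, Csf2ra, Csf2rb2 and Csf3r did not pass. These are 2 genes called higher and 1 lower of 8, where 9.08% of all tested genes were called, 4.97% higher and 4.12% lower. That split of 573 genes higher and 475 lower was 339 and 421 with limma on log2 of FPKM plus 0.1. The FPKM of M and ET did not overlap for 7 of the 8, all but Csf3, where 28.8% of all tested genes did not overlap. The median log2 difference over the 8 was -0.12, and over all tested genes 0.00300. All 3 calls were lost when single libraries were left out. Csf2 was lost without M replicate 1 (adjusted p = 0.0883), M replicate 3 (0.135), ET replicate 1 (0.0824), ET replicate 2 (0.129) or ET replicate 3 (0.0509), and Csf1r and Csf2rb were lost without any 1 of these libraries or M replicate 2, other than ET replicate 3 (adjusted p of 0.0599 to 0.109 and 0.0709 to 0.121, edgeR quasi-likelihood test).

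**Figure D3:**
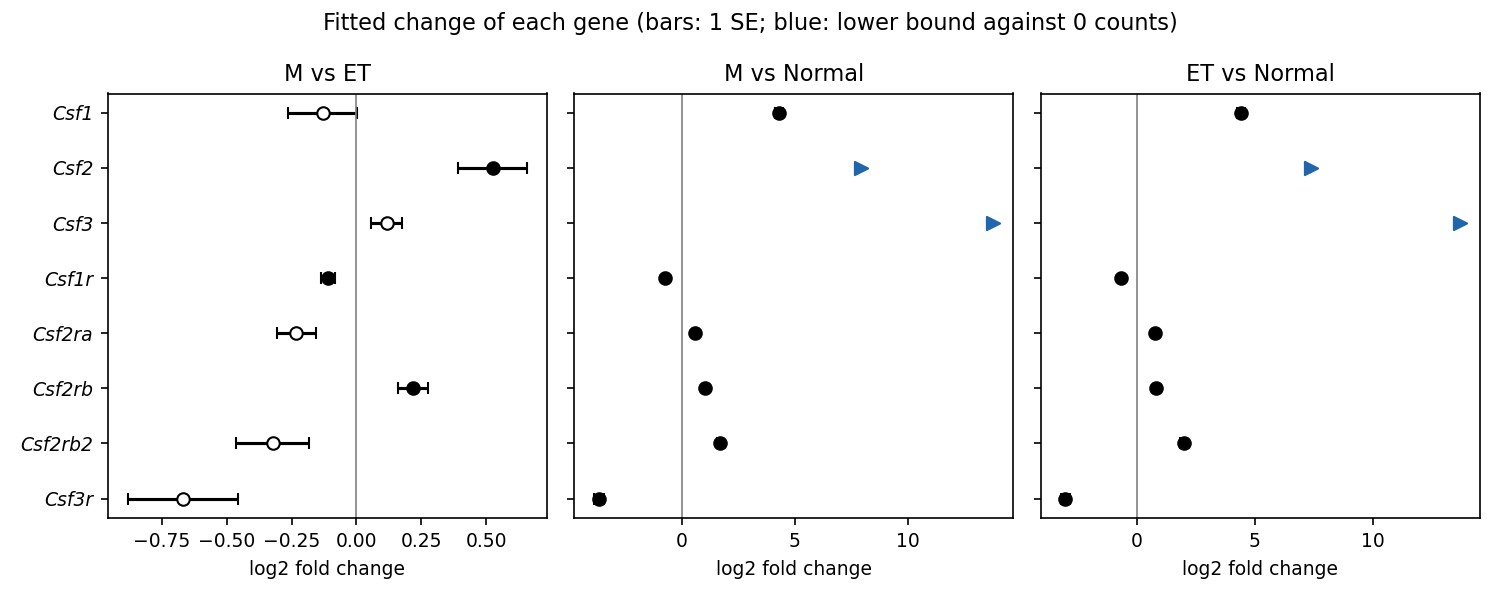
Log2 fold change of each gene for M against ET, M against Normal and ET against Normal, on a separate axis per panel; points are fitted values with bars of 1 SE, filled where the adjusted p is under 0.05, and blue triangles are the lower bounds of Csf2 and Csf3 against 0 counts. Csf1r and Csf3r lie below 0 and the other 6 genes above 0 in both panels against Normal, and between M and ET only Csf2, Csf1r and Csf2rb are filled.

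The related ligands and chains of these receptor families were scarce or absent. Il34, which encodes the other ligand of CSF1R, had 29, 9 and 27 counts in M, 14, 22 and 38 in ET and 0 in each Normal library, or 0.164 ± 0.0826 FPKM in M and 0.192 ± 0.0980 in ET (SD, n = 3). The M and ET counts overlapped, and Il34 did not pass the filter on low values. Il5, the ligand of another receptor that uses the shared beta chain, had counts in 1 library, 7 in Normal replicate 2, and its receptor gene Il5ra in 1 library, 8 in M replicate 1. Il3 and Il3ra were not analysed here.

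Genes listed as targets of STAT5, the transcription factor that GM-CSF receptors activate, included many that were higher in treated cells. Of 13 listed targets 12 were tested. Of these, Cish, Ccnd2, Id1 and Myc passed the filter only through the treated libraries, so their direction was fixed and the counts and the median are no support for a rise of the list. In M against Normal 11 were higher and 1, Ccnd1, did not pass (log2 change 0.01, adjusted p = 0.785, edgeR quasi-likelihood test), in ET against Normal 12 were higher, and in the mean of M and ET against Normal 12 were higher and none lower, where 73.5% of all tested genes were called, 36.8% higher and 36.8% lower (edgeR quasi-likelihood test, adjusted p under 0.05). Their median log2 change was 3.08, where the median over all tested genes was -0.01. Bcl2l1, an inhibitor of apoptosis, had 32.9 ± 0.283 FPKM in M, 35.1 ± 1.39 in ET and 4.02 ± 0.107 in Normal, and the serine/threonine kinase gene Pim1 had 23.4 ± 1.23, 20.2 ± 1.30 and 3.32 ± 0.0951. Socs3, a feedback inhibitor that binds CSF3R and related receptors, had 119 ± 4.33 FPKM in M, 121 ± 7.79 in ET and 11 ± 0.528 in Normal, and the cyclin gene Ccnd2 had 4.22 ± 0.212, 3.79 ± 0.182 and 0.526 ± 0.0349. Between M and ET, 3 of the 12 were higher in M and 1 lower, where 4.97% of all tested genes were higher and 4.12% lower. The cytokine gene Osm had 27.2 ± 1.84 FPKM in M and 17.6 ± 0.614 in ET (log2 difference 0.63, adjusted p = 0.000643), and Cish, a feedback inhibitor induced by STAT5, had 2.34 ± 0.157 in M and 1.2 ± 0.197 in ET (0.97, adjusted p = 0.0431). Pim1 was also higher in M (0.22, adjusted p = 0.0383), and Ccnd1, cyclin D1, was lower (-0.24, adjusted p = 0.00300, edgeR quasi-likelihood test). Without ET replicate 3, 1 of the 12 was higher and 1 lower, where 1121 of all 11536 tested genes were higher and 707 lower.

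Of 27 listed signalling genes 26 were tested, of which 12 rose and 10 fell in the treated mean relative to Normal (median log2 change 0.02), and 4 were higher and 3 lower in M than in ET. Over all tested genes the shares were 36.8% higher and 36.8% lower against Normal, and 4.97% higher and 4.12% lower in M than in ET. Stat3, which transmits the G-CSF signal, had 21.8 ± 0.333 FPKM in M, 18.8 ± 0.509 in ET and 8.18 ± 0.449 in Normal, and Stat5a had 6.57 ± 0.182, 5.67 ± 0.114 and 5.45 ± 0.0394 (SD, n = 3). Both were higher in M than in ET, Stat3 by a log2 difference of 0.23 (adjusted p = 0.00565) and Stat5a by 0.22 (adjusted p = 0.0152) in edgeR's quasi-likelihood test. The cytoplasmic tyrosine kinase gene Fes went the other way, with 7.03 ± 0.339 FPKM in M, 8.40 ± 0.210 in ET and 24.7 ± 0.853 in Normal, and Syk, another tyrosine kinase, had 32.7 ± 0.954, 31.1 ± 0.467 and 12.2 ± 0.264.

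Of 15 listed negative regulators 13 were tested, of which 6 rose and 7 fell in the treated mean relative to Normal (median log2 change -0.20), and 1 was higher and 1 lower in M than in ET, beside 36.8% higher and 36.8% lower against Normal and 9.08% called between M and ET over all tested genes. Socs1 and Cish passed the filter only through the treated libraries. Besides Socs3 and Cish, the adaptor gene Dok2 was higher, with 36.6 ± 0.718 FPKM in M, 39.2 ± 1.30 in ET and 14.6 ± 0.896 in Normal, and so was Socs1, a STAT-induced inhibitor, with 1.34 ± 0.186, 1.04 ± 0.0370 and 0.114 ± 0.0407. Ptpn6, the phosphatase SHP-1, which restrains CSF1R and the beta-chain receptors, was lower, with 125 ± 2.31 FPKM in M, 122 ± 2.54 in ET and 200 ± 4.15 in Normal (log2 change -0.61, adjusted p = 4e-10, edgeR quasi-likelihood test). The adaptor gene Dok1 was lower in M than in ET, at 14.2 ± 0.563 FPKM in M, 16.9 ± 0.404 in ET and 18.9 ± 0.630 in Normal (log2 difference -0.24, adjusted p = 0.0215, edgeR quasi-likelihood test). Without ET replicate 3, none of the 13 was higher and 1 lower in M than in ET. Of all 11536 tested genes, 1121 were then higher and 707 lower.

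Of 11 listed transcription factors known to act on Csf1r, 10 were in the table and 9 were tested, of which 6 were lower and 2 higher in the treated mean than in Normal (median log2 change -0.39), beside 36.8% lower and 36.8% higher over all tested genes. Fli1, an ETS family factor, had 10.3 ± 0.778 FPKM in M, 10.1 ± 0.274 in ET and 26.2 ± 1.59 in Normal, and Runx1, a master regulator of blood cell formation, had 4.29 ± 0.162, 4.54 ± 0.265 and 9.32 ± 0.510. Irf8 had 8.38 ± 0.143 FPKM in M, 9.19 ± 0.360 in ET and 12.1 ± 0.0462 in Normal, and Cebpa had 3.57 ± 0.487, 4.27 ± 0.432 and 6.95 ± 0.518; both are factors of myeloid differentiation. The 2 that rose were Ets2, with 32.2 ± 0.488 FPKM in M, 35.3 ± 1.43 in ET and 6.62 ± 0.374 in Normal, and Cebpb, with 77.5 ± 2.05, 88.3 ± 3.37 and 48.5 ± 1.43. Cebpb was also the 1 factor called between M and ET (log2 difference -0.18, adjusted p = 0.0167, edgeR quasi-likelihood test), where 9.08% of all tested genes were called. Without ET replicate 3 there were 2 such calls, both lower in M, where 1121 of all 11536 tested genes were higher and 707 lower.

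Of 4 genes of the shedding machinery, which releases membrane-bound CSF1 and cleaves CSF1R from the cell surface, 2 rose and 1 fell in the mean of M and ET, beside 73.5% of all tested genes called in either direction. Adam17, the main sheddase, had 32.8 ± 0.952 FPKM in M, 29.9 ± 0.440 in ET and 25.0 ± 0.603 in Normal, and its partner Rhbdf2 (iRhom2) had 21.1 ± 0.989, 24.1 ± 0.541 and 9.81 ± 0.261. The related protease gene Adam10 was lower, with 41.4 ± 1.15 FPKM in M, 35.6 ± 3.91 in ET and 73.4 ± 2.15 in Normal. Between M and ET, Adam17 (log2 difference 0.14, adjusted p = 0.0297) and Adam10 (0.23, adjusted p = 0.0451) were higher in M and Rhbdf2 was lower (-0.18, adjusted p = 0.0184, edgeR quasi-likelihood test). Rhbdf1 had 1.28 ± 0.183 FPKM in M, 1.61 ± 0.0842 in ET and 1.47 ± 0.196 in Normal and passed in neither comparison. Over all tested genes, 9.08% were called between M and ET.

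Of 11 genes listed under AU-rich mRNA binding and decay, all of them tested, 3 rose and 7 fell in the treated mean against Normal (median log2 change -0.14). Over all tested genes the shares were 36.8% higher and 36.8% lower. Whether each listed protein binds the elements of Csf2 or Csf3 was not tested. Zfp36, tristetraprolin, which promotes decay of Csf2 mRNA in mouse cells, had 54.9 ± 2.03 FPKM in M, 48.4 ± 0.625 in ET and 9.88 ± 0.0318 in Normal, and the endonuclease gene Zc3h12a (regnase-1) had 34.5 ± 1.02, 32.1 ± 3.51 and 3.79 ± 0.305. Hnrnpd (AUF1) was lower, with 23.8 ± 0.578 FPKM in M, 23.5 ± 1.19 in ET and 43.9 ± 1.51 in Normal, as was Khsrp, a decay-promoting protein, with 38.4 ± 2.65, 37.9 ± 1.93 and 58.1 ± 0.841. Between M and ET, Zfp36 was higher in M (log2 difference 0.19, adjusted p = 0.00605) and its paralog Zfp36l2 lower (-0.22, adjusted p = 0.0259, edgeR quasi-likelihood test), at 34.1 ± 1.94 FPKM in M and 40 ± 2.2 in ET. Without ET replicate 3, 3 of the 11 were higher and 1 lower in M than in ET. Of all 11536 tested genes, 1121 were then higher and 707 lower, where all 9 libraries gave 573 and 475.

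**Figure D4:**
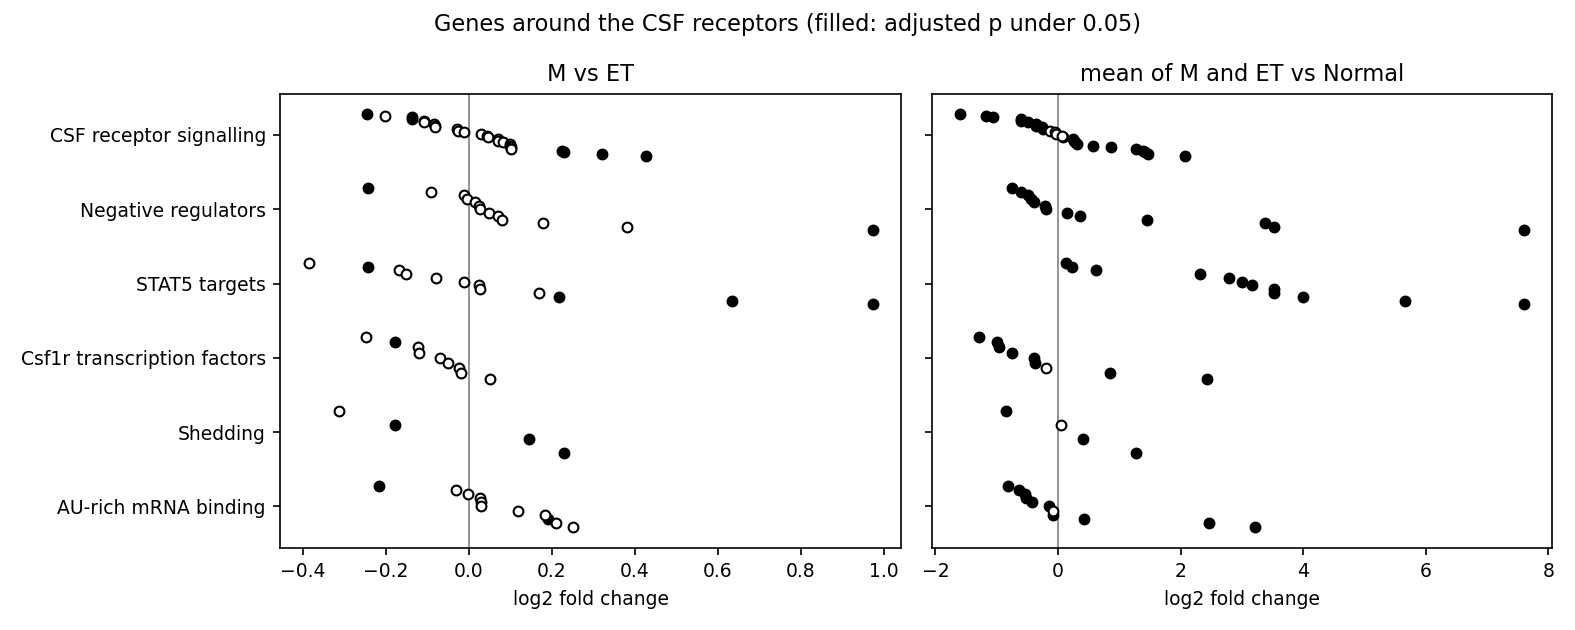
Log2 fold change of every tested gene of the 6 lists, for M against ET and for the mean of M and ET against Normal; each point is a gene, filled where the edgeR adjusted p is under 0.05. All 12 tested STAT5 targets lie above 0 in the treated mean, while the signalling list holds 12 genes called higher and 10 called lower.

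The genes whose levels over the 9 libraries lay nearest to each member were found by Euclidean distance of log2 CPM centred on each gene's mean. Nearest to Csf3 were Nos2 (distance 1.57), Lcn2 (2.17) and Il6 (2.2), and nearest to Csf2 were P3h2 (0.519), Inhba (0.580) and Gstp3 (0.646), all listed at 0 FPKM in Normal. Nearest to Csf1 were Dmpk (0.396), Acp5 (0.442) and Ifitm6 (0.487). Nearest to Csf1r were Nde1 (0.0773), Mkrn1 (0.0924) and Man2a2 (0.0925), with Nde1 at 19.5 FPKM in M, 20.5 in ET and 34.9 in Normal. For Csf3r they were Cbfa2t3 (0.732), Frmd4b (0.845) and Ppfia4 (0.903), with Frmd4b at 1.06 FPKM in M, 1.27 in ET and 12.0 in Normal. For Csf2ra they were Ggta1 (0.114), Bcl2l2 (0.155) and Prkar2b (0.190), for Csf2rb Ccng1 (0.169), Actg1 (0.180) and Calu (0.186), and for Csf2rb2 Xdh (0.386), Itga7 (0.447) and Agpat4 (0.453). The nearest genes of Csf2ra and Csf2rb2 were at least as high in ET as in M, and those of Csf2rb were higher in M. They were picked by distance over these same libraries, so a direction shared with the member follows from the choice.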

How the data were processed

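Poly(A) RNA was read as paired 150-base reads from a kit that marks strand, per the labels' protocols. Per the submitters' processing notes, cutadapt 1.9, HISAT2 2.2.1 and StringTie 2.1.6 were used, with DESeq2 and edgeR in unstated versions. The counting tool, its strand setting and the genome build are not given in the sources used here. The deposited counts are whole numbers per gene and library, and the deposited FPKM values are, per the file headers, the authors' own per-length levels. Start and end of 22699 of 26146 genes (86.8%) equalled GENCODE M21, so coordinates are given as GRCm38; of the 8 genes, Csf1r and Csf2rb differed from it.

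The 8 genes and all lists were chosen with earlier results of these data known. Each sample's label names its table column. Counts of the 11536 genes that reached 1 FPKM in 3 or more of the 9 libraries were fitted for the 3 groups at once with edgeR 4.0.16 in R 4.3.3 (TMM factors, quasi-likelihood test, Benjamini-Hochberg adjustment over all tested genes, threshold 0.05). CPM is TMM-scaled, and values are mean ± SD of 3 libraries. Where a gene had 0 counts, the floor was 3 per library, 0.0378 to 0.0509 CPM in Normal, and folds against it are lower bounds. Floors and intervals cover counting error only and, for intervals of folds, the spread between libraries. Alternatives were DESeq2 1.42.0, limma 3.58.1 on log2 of FPKM plus 0.1 or 1, other scalings and filters, 6-library fits, a replicate block and leaving out each library. Leaving out ET replicate 3 for the list counts was chosen after seeing the data. Named list genes were up to 4 with the smallest p in M against ET and up to 4 in the treated mean against Normal. A gene that this rule takes is not reported here. The fit was tested on simulated counts. Splicing was not analysed here.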

Additional observations from a re-analysis of the deposited data

How the results depend on the processing

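Against Normal, all 8 genes kept their direction and their call in both comparisons under the 15 alternatives run for each. Their sizes moved most with limma on log2 of FPKM plus 1, which shrinks changes of low genes by its construction. Over all alternatives the log2 change in M against Normal was 1.38 to 4.53 for Csf1, 1.04 to 1.82 for Csf2rb2 and -3.87 to -1.81 for Csf3r. Between M and ET no direction turned round in 120 values. Only the 3 genes called in the main fit could lose a call. Under the 15 alternatives Csf2 was called in 8, Csf1r in 9 and Csf2rb in 6, which makes 22 lost calls. Among the genes not called in the main fit, 2 values gained a call. The cause was not tested. DESeq2 called 1682 genes and 5 of the 8, adding Csf2ra (log2 difference -0.24, adjusted p = 0.0276) and Csf3r (-0.68, adjusted p = 0.0243), where edgeR called 1048 and 3. Without a filter on low values, which tests more genes, edgeR called 615 genes and 0 of the 8 (6 at an unadjusted p under 0.05), with log2 differences of 0.53 for Csf2 (adjusted p = 0.0783), -0.11 for Csf1r (0.0726) and 0.22 for Csf2rb (0.0605). With limma, the log2 difference of Csf2rb was 0.20 (adjusted p = 0.0673) at a pseudocount of 0.1 and 0.18 (0.0547) at 1. Leaving out 1 library gave 536 to 1828 genes, the most without ET replicate 3, and 0 to 2 of the 8 (5 or 6 at an unadjusted p under 0.05), with Csf2 at 0.43 to 0.60, Csf1r at -0.12 to -0.10 and Csf2rb at 0.19 to 0.24. Over all alternatives the adjusted p was 0.00437 to 0.135 for Csf2, 0.00422 to 0.109 for Csf1r and 0.00757 to 0.121 for Csf2rb. Deviations of same-numbered libraries correlated at -0.05 to 0.08, and those of differently numbered libraries at -0.08 to 0.09. Between M and ET, same-numbered pairs gave 0.0309 to 0.0756 and the others -0.0571 to 0.0233. The labels do not say that a number marks a shared culture, and these correlations cannot decide it. With the replicate block 1 of the 8 was called, with Csf2 at 0.52 (adjusted p = 0.0555) and Csf2rb at 0.22 (0.0623). The Csf2rb2 share in ET exceeded that in Normal by 17.1 points from FPKM. Scaling by totals alone put 461 genes higher and 552 lower in M than in ET, where TMM put 573 and 475. At this depth, 40 to 97 counts of Csf3r per treated library and 9 to 38 of Il34 limit what can be said of either.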
